A study of Mus musculus with 4 samples.

Results

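The proteasome genes of mouse splenic B cells were followed through 48 h of culture with LPS, the bacterial lipopolysaccharide that drives B cells to divide and secrete antibody. They were taken by name, as every gene called Psma to Psmg followed by a digit in the gene count table, with 3 names marked as pseudogenes left out. The rule found 50 genes among 41342, and 48 of them reached the mean of 50 counts at which 11286 genes were tested. Total RNA, depleted of ribosomal RNA, came from CD43-depleted splenocytes of homozygous mice with mutations in the enhancer cluster behind the IgH locus (the 3'RR) in a 129 background. ΔleftPAL mice lack the left part of the 3'RR palindrome, namely the hs3a and hs1,2 enhancers and the IRIS, the inverted repeats between them. ΔIRIS mice keep every enhancer, with hs3a reinserted in inverted orientation beside hs1,2, but lack that IRIS. In both strains the selection cassette had been removed with cre. Each genotype gave 1 library of freshly isolated resting cells and 1 of cells kept for 48 h with 5 µg per ml LPS. No library used here came from cells cultured without LPS, so LPS and time in culture cannot be told apart. An LPS change or response below means both together. Each library pooled cells or RNA of several mice. The labels name 4 mice and the study describes the pooling in more than 1 way, so the number behind a library is uncertain. The wt libraries were not analysed here.

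With 1 library per genotype and culture, no group had a replicate. The LPS term was therefore tested across the 2 genotypes, which stood in for replicates, by edgeR's quasi-likelihood test with genotype as a block, and 1 residual degree of freedom was left. Its p-values rest on how far the 4 libraries depart from an equal LPS change in both genotypes, and on spread shared over genes. They do not measure the spread between mice. Values within 1 genotype or 1 culture compare 2 libraries and carry 95% exact Clopper-Pearson intervals for counting error only. Levels are CPM, fragment counts scaled to a common TMM effective library size, and log2 ratios are of CPM + 0.5, which understates the change of low genes. CPM is a share of the RNA, so a change of total RNA per cell does not show in it.

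The libraries held between 23615496 and 29776108 fragments assigned to named genes, and the floor of 3 counts lay between 0.101 and 0.127 CPM. All 4 B cell markers used (Ms4a1, Cd79a, Cd79b and Pax5) were over that floor in every library, with a summed level of 2153 to 2525 CPM at rest and 1575 to 1705 CPM after LPS. The resting libraries also held RNA of other cells. Erythroid markers, 3 of 3, summed to 33580 CPM in resting ΔleftPAL and 23290 CPM in resting ΔIRIS cells, against 50.2 and 105 CPM after LPS. Myeloid markers, 5 of 5 over the floor at rest and 3 of 5 after LPS, summed to 288 and 385 CPM at rest and to 6.79 and 16.0 CPM after LPS. Itgam made up most of the latter and went from 13.1 to 5.20 CPM in ΔleftPAL and from 10.5 to 15.4 CPM in ΔIRIS cells, while Csf1r, Lyz2, S100a8 and S100a9 were lower after LPS in both. The 5 T cell markers summed to 19.3 and 25.2 CPM at rest, and after LPS none passed the floor, Cd3e, Cd3d and Cd3g being at 0. The 2 NK cell markers summed to 2.09 and 0.963 CPM at rest and were likewise under the floor after LPS, while of the 2 dendritic cell markers Flt3 was higher after LPS (17.8 and 26.1 CPM at rest, 45.3 and 36.0 CPM after LPS) and Zbtb46 lower (8.23 and 8.98 CPM, then 2.19 and 0.785 CPM). Proliferation markers (Mki67, Top2a, Ccnb1) stood at 297 and 396 CPM at rest and at 2773 and 3170 CPM after LPS, ΔleftPAL first. Of the plasma cell markers, Xbp1 stood at 61.9 and 64.4 CPM at rest and at 389.5 and 259.8 CPM after LPS and Prdm1 at 4.54 and 7.22, then 76.0 and 43.9 CPM, while the surface marker Sdc1 went from 12.7 to 17.9 CPM in ΔleftPAL and from 17.9 to 13.2 CPM in ΔIRIS cells. These cells and states moved with every LPS difference given here, and their part in it was not tested. In bulk RNA, fewer cells of a type and less RNA per cell cannot be told apart.

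The proteasome degrades ubiquitin-tagged proteins. Its barrel, the 20S core, stacks rings of alpha subunits (Psma), which gate entry, on rings of beta subunits (Psmb), of which Psmb5, Psmb6 and Psmb7 cut peptide bonds. The 19S regulatory particle caps the barrel, with ATPases (Psmc) that unfold the substrate and further subunits (Psmd) that bind and deubiquitinate it. In cells of the immune system, and after interferon, Psmb8, Psmb9 and Psmb10 take the places of Psmb5, Psmb6 and Psmb7 to form the immunoproteasome, which is known for making peptides that fit MHC class I. Psme genes encode alternative caps, Psmf1 an inhibitor, and Psmg1 to Psmg4 chaperones of core assembly.

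LPS culture was accompanied by more RNA of every tested core and 19S subunit in both genotypes. Of the immunoproteasome subunits, Psmb9 and Psmb10 had smaller log2 ratios than any of these in each genotype, while Psmb8 lay within their range in ΔIRIS cells, and the difference between the groups was not tested. Together the 50 genes took 0.237% of the gene counts at rest and 0.556% after LPS in ΔleftPAL cells, and 0.228% and 0.604% in ΔIRIS cells. Of the 48 genes tested, 44 were higher after LPS at an adjusted p under 0.05 in edgeR, against a background of 36.4% of all genes tested, and 1 was lower, against 27.9%. At least 2-fold more RNA after LPS in each genotype was read for 34 of the 48, against 17.4% of all genes tested. The median log2 ratio of the 48 was 1.49 in ΔleftPAL and 1.40 in ΔIRIS cells, and that of all genes tested was 0.12 and 0.13. The 3 tested genes without a call were Psmb10, Psmf1 and Psmg4. The 2 genes not tested were Psma8, the alpha subunit of the testis, with 6, 15, 8 and 1 counts (resting and LPS-activated ΔleftPAL, then resting and LPS-activated ΔIRIS cells), and Psmb11, the beta subunit of thymic epithelium, with 0 counts in every library of the gene table. Kallisto assigned 75.2, 37.7, 77.1 and 36.5 estimated counts to Psmb11 in the same order, so the tables disagree on this gene.

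**Figure D1:**
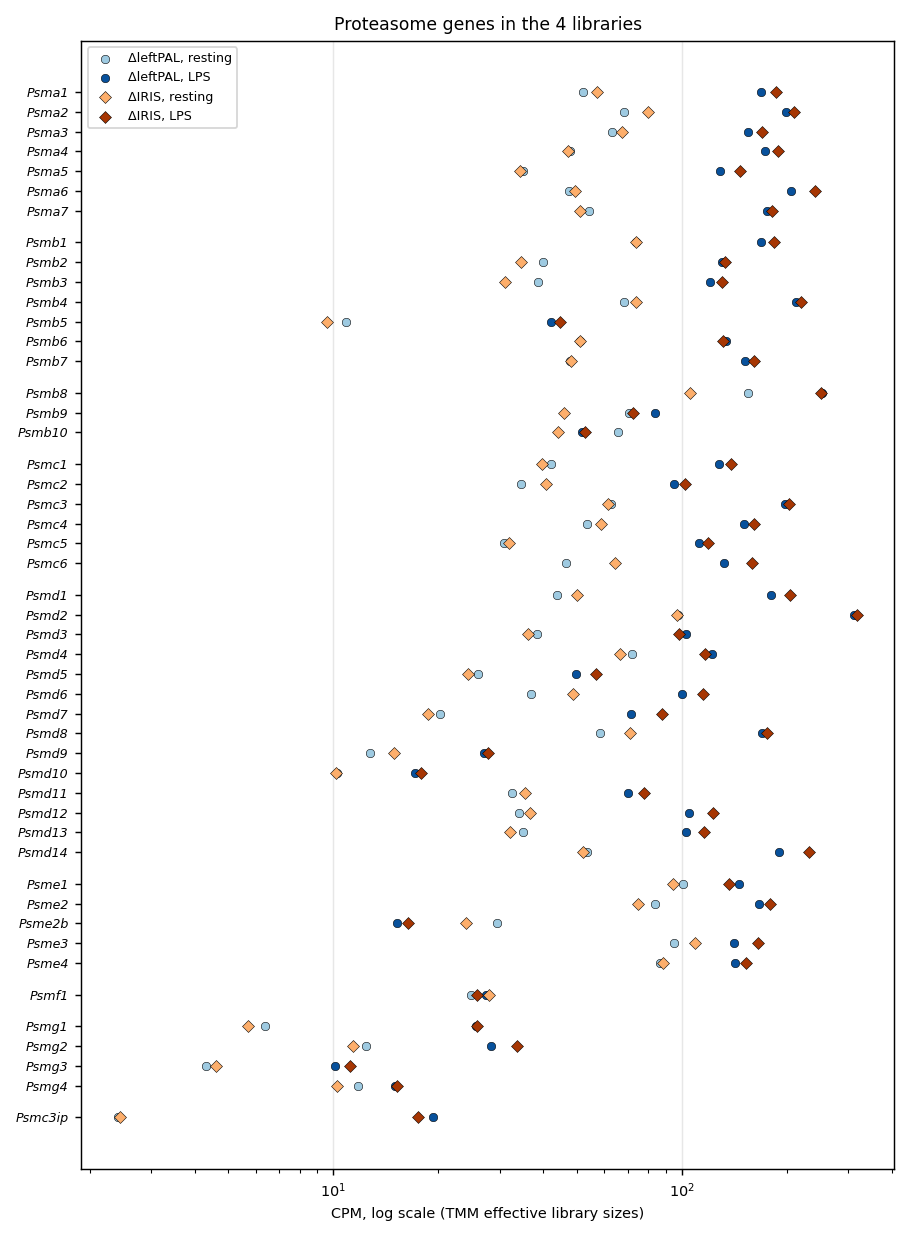
CPM (x axis, log scale) of the 48 proteasome genes tested (y axis, grouped by role), with 1 point per library: circles for ΔleftPAL, diamonds for ΔIRIS, pale for resting and dark for LPS-activated cells. The dark points lie to the right of the pale ones except for Psmb10, where they overlap, for Psmf1, whose points lie together between 24.8 and 28.1 CPM, and for Psme2b, where they lie to the left.

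All 7 tested alpha ring genes rose, by a median of 1.77 on the log2 scale of the edgeR fit, with a range of 1.32 to 2.20. Psma6 had the largest change of any proteasome subunit. It read 47.4 CPM at rest and 206 CPM after LPS in ΔleftPAL cells, and 49.4 and 241 CPM in ΔIRIS cells. Both LPS libraries thus lay well above both resting libraries, and the fitted change was 2.20 ± 0.13 (SE), 4.60-fold, with an adjusted p of 0.000239 in edgeR. The smallest change in the ring was that of Psma3, with 63.0 and 155 CPM in ΔleftPAL and 67.4 and 170.5 CPM in ΔIRIS cells, a 2.50-fold change (edgeR adjusted p = 0.00064). Psma5 and Psma4 changed by 3.98-fold and 3.81-fold.

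All 7 constitutive beta ring genes rose as well, with a median of 1.70 and a range of 1.25 (Psmb1) to 2.09 (Psmb5) on the log2 scale. Psmb5, the subunit with chymotrypsin-like activity, went from 10.9 to 42.2 CPM in ΔleftPAL and from 9.60 to 44.8 CPM in ΔIRIS cells, a 4.25-fold change (2.09 ± 0.15 SE, edgeR adjusted p = 0.000332). The gene table counted fewer fragments for Psmb5 than kallisto assigned to it, at a ratio of 0.582 to 0.609 in the 4 libraries, against a median of 0.993 to 1.00 over the proteasome genes, so its level is less certain than its change. Psmb6, with caspase-like activity, read 51.0 and 134.1 CPM in ΔleftPAL and 50.9 and 131 CPM in ΔIRIS cells (1.38 ± 0.13 SE, 2.60-fold, edgeR adjusted p = 0.000564). Psmb7, with trypsin-like activity, read 47.9 and 152 CPM in ΔleftPAL and 48.1 and 161 CPM in ΔIRIS cells (1.70 ± 0.13 SE, 3.26-fold, edgeR adjusted p = 0.00036). For each of these catalytic genes the genotypes lay close together within a culture and the cultures lay far apart.

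The 19S particle followed the core. All 6 ATPase genes rose, within the narrow range of 1.40 (Psmc2) to 1.87 (Psmc5) on the log2 scale. Psmc5 read 30.9 and 112 CPM in ΔleftPAL and 32.0 and 119 CPM in ΔIRIS cells. All 14 further Psmd genes rose too, with a wider range of 0.78 to 2.03. At its upper end in CPM stood Psmd1, a scaffold of the base, with 43.9 and 180.0 CPM in ΔleftPAL and 49.95 and 204 CPM in ΔIRIS cells, and Psmd7 and Psmd14, the paired subunits of the deubiquitinating module, of which Psmd14 is the enzyme. Psmd14 read 53.3 and 190.3 CPM in ΔleftPAL and 52.2 and 232 CPM in ΔIRIS cells, a 3.99-fold change (edgeR adjusted p = 0.000343). In TPM its mean log2 ratio was 1.34, against 1.98 in CPM. Psmd7 read 20.3 and 71.6 CPM in ΔleftPAL and 18.8 and 87.5 CPM in ΔIRIS cells, a 4.06-fold change (edgeR adjusted p = 0.000367). Psmd2, the other base scaffold, read 97.5 and 313 CPM in ΔleftPAL and 96.7 and 319 CPM in ΔIRIS cells.

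The lower end of the Psmd genes held Psmd4 and 3 genes whose products are not part of the finished particle. Psmd5, Psmd9 and Psmd10 encode chaperones that assemble the base, and they changed by 2.10-fold, 1.99-fold and 1.71-fold. The call of Psmd10 was lost in DESeq2 and without the LPS-activated ΔIRIS library. Psmd4, a ubiquitin receptor of the particle, changed by 1.73-fold, from 72.1 to 122.5 CPM in ΔleftPAL and from 66.6 to 117 CPM in ΔIRIS cells. Counted without these chaperones, the core and the 19S particle comprise 31 tested genes. All 31 were called higher, against 36.4% of all genes tested. At least 2-fold more RNA in each genotype was read for 30 of them, against 17.4%, the exception being Psmd4.

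Subunits of 1 particle are needed in equal number, and their RNA levels can be compared in TPM, which accounts for transcript length. Over the 14 constitutive genes of the 20S core, the highest level was 3.58 times the lowest at rest and 2.51 times after LPS in ΔleftPAL cells, and 5.06 and 2.58 times in ΔIRIS cells. The SD of their log2 TPM was 0.54 and 0.63 at rest and 0.38 in both LPS libraries, so the levels lay closer together after LPS in each genotype. Psmb5 was the lowest of the 14 in every library, with 34.9 and 28.6 TPM at rest and 113.4 and 114 TPM after LPS. Over the 6 ATPase genes the SD was 0.43 and 0.48 at rest and 0.43 and 0.42 after LPS, and the highest level was 2.02 and 2.04 times the lowest at rest and 2.42 and 2.36 times after LPS, so that ratio was higher after LPS in both genotypes. Over the 11 other 19S genes, the assembly chaperones left out, the ratio went from 4.37 to 3.51 in ΔleftPAL and from 4.37 to 3.76 in ΔIRIS cells, and the SD from 0.71 to 0.62 and from 0.77 to 0.61, both lower after LPS.

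Psmb8, the inducible catalytic subunit that replaces Psmb5, stood among the highest proteasome genes per length in the resting ΔleftPAL library, the first of the 48 in TPM, at 180.6, and behind Psma2 and Psmb1 in CPM per kb, at 56.6 against 72.3 and 71.5. It read 154.9 CPM there and 252 CPM after LPS. In ΔIRIS cells it read 105 and 251 CPM, so the libraries differed at rest and met after LPS. Psmb8 was not first in the resting ΔIRIS library, where its 115.5 TPM lay behind Psmb4 (144.8), Psme2 (133.5) and Psma2 (129.9). The fitted LPS change was 0.98 ± 0.17 (SE), 1.97-fold, with an adjusted p of 0.00481 in edgeR, and the log2 ratio was 0.70 (0.64 to 0.76) in ΔleftPAL and 1.25 (1.19 to 1.31) in ΔIRIS cells.

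Psmb9, which replaces Psmb6, read 70.5 and 83.8 CPM in ΔleftPAL and 45.9 and 72.5 CPM in ΔIRIS cells. Its resting ΔleftPAL level was close to its LPS level in ΔIRIS cells, so the cultures nearly touched. The fitted change of 0.45 ± 0.15 (SE), 1.37-fold, had an adjusted p of 0.0422 in edgeR. That call was lost with total counts as library sizes, without the genotype block, in DESeq2, and on leaving out any library other than the resting ΔleftPAL one. Psmb10, which replaces Psmb7, read 65.8 and 51.9 CPM in ΔleftPAL and 44.1 and 52.8 CPM in ΔIRIS cells. Its log2 ratio was -0.34 (-0.45 to -0.24) in ΔleftPAL and 0.26 (0.15 to 0.37) in ΔIRIS cells, and the fitted change of -0.04 ± 0.18 (SE) was not called (edgeR adjusted p = 0.844). In TPM Psmb10 went from 77.64 to 51.51 in ΔleftPAL and from 50.52 to 50.45 in ΔIRIS cells, so the ΔIRIS rise was not seen there. The median log2 ratio of all genes tested was also lower in TPM, at -0.20 and -0.18, against 0.12 and 0.13 in CPM.

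Within a library, the inducible and the constitutive subunit of a pair can be set against each other per length, free of library scaling. The ratio of CPM per kb of Psmb8 to Psmb5 was 4.53 (4.00 to 5.15) at rest and 1.90 (1.79 to 2.03) after LPS in ΔleftPAL cells, and 3.49 (3.09 to 3.96) and 1.79 (1.68 to 1.89) in ΔIRIS cells. Psmb8 RNA thus exceeded Psmb5 RNA in every library, by less after LPS.

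For Psmb9 to Psmb6 the ratio was 0.707 (0.657 to 0.761) and 0.320 (0.303 to 0.337) in ΔleftPAL, and 0.461 (0.428 to 0.497) and 0.283 (0.268 to 0.298) in ΔIRIS cells. For Psmb10 to Psmb7 it was 1.31 (1.22 to 1.42) and 0.327 (0.307 to 0.347) in ΔleftPAL, and 0.877 (0.812 to 0.946) and 0.313 (0.296 to 0.332) in ΔIRIS cells. No resting interval overlapped the LPS interval of its genotype for any of the 3 pairs. On the log2 scale the LPS change of the ratio was -1.25 and -0.97 for Psmb8 to Psmb5, -1.15 and -0.71 for Psmb9 to Psmb6, and -2.01 and -1.48 for Psmb10 to Psmb7, ΔleftPAL first. In TPM, where transcript lengths are estimated otherwise, the same changes were -1.23 and -0.96, -1.07 and -0.77, and -1.99 and -1.45. The 6 changes had 1 direction and the larger size was in ΔleftPAL cells for each pair, and this difference between genotypes was not tested.

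**Figure D2:**
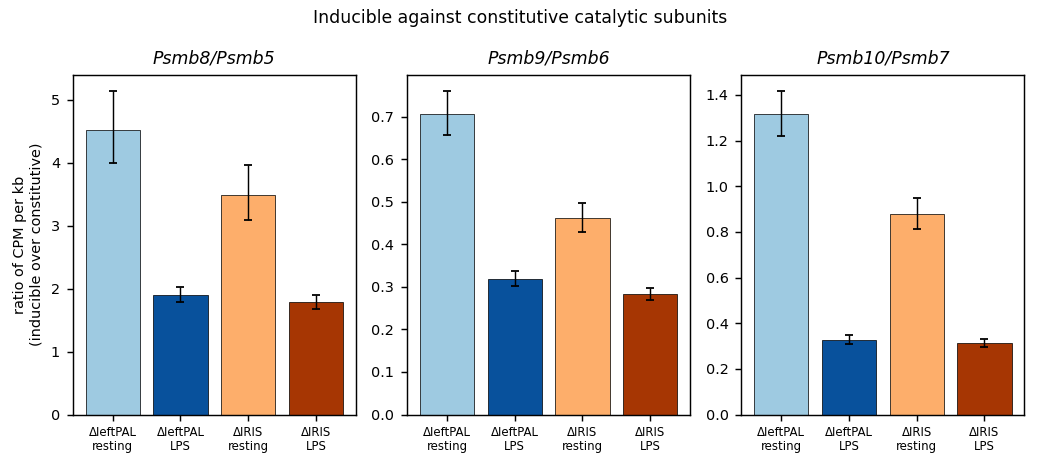
Ratio of CPM per kb (y axis) of an inducible over its constitutive catalytic subunit in each of the 4 libraries (x axis), 1 panel per pair; bars start at 0 and lines are 95% exact intervals for counting error. Each pair has its highest bar in resting ΔleftPAL cells, 4.53 for Psmb8/Psmb5, 0.707 for Psmb9/Psmb6 and 1.31 for Psmb10/Psmb7, and lower bars after LPS in both genotypes.

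The promoters of these catalytic genes are shown because the LPS responses of the constitutive and the inducible group lay apart. They come from RefSeq (GRCm38.p6) and run from 250 bases before to 50 bases after the annotated start, 5′ to 3′ on the gene's strand. Of the 50 genes, 42 matched the table by symbol, and Psmb7 is not among them. Capitals mark matches, on either strand, to any of 6 motifs: TGACNNNGC (core of the antioxidant response element, bound by Nrf1 and Nrf2), GAAANNGAA (core of the interferon response element), TTCNNNGAA (STAT), CACGTG (E-box), CCAAT (NF-Y) and GGGCGG (Sp1).
Psmb5 promoter, chr14:54617946-54618245, minus strand: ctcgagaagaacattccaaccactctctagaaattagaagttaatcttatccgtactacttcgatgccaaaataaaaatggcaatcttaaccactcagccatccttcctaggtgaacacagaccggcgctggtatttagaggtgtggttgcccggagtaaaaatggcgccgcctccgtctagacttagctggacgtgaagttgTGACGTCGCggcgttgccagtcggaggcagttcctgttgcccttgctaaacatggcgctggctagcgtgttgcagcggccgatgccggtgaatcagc
Psmb6 promoter, chr11:70525107-70525406, plus strand: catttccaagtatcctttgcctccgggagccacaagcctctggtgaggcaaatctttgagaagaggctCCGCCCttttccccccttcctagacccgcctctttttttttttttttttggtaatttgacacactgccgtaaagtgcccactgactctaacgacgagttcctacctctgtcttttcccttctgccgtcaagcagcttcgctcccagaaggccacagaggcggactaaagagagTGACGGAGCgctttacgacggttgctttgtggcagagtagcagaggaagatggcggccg
Psmb8 promoter, chr17:34197945-34198244, plus strand: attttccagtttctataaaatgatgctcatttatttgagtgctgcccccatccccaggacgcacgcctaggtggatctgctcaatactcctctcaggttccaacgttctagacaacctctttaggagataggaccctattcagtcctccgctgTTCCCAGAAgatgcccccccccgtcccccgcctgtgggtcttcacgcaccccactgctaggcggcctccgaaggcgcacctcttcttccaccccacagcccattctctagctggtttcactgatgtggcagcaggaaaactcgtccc
Psmb9 promoter, chr17:34187281-34187580, minus strand: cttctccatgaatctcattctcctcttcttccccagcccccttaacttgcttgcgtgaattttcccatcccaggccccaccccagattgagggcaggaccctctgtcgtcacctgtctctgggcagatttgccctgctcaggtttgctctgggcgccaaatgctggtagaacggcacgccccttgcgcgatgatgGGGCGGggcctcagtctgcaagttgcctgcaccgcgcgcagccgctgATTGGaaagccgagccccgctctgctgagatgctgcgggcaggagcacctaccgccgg
Psmb10 promoter, chr8:105938343-105938642, minus strand: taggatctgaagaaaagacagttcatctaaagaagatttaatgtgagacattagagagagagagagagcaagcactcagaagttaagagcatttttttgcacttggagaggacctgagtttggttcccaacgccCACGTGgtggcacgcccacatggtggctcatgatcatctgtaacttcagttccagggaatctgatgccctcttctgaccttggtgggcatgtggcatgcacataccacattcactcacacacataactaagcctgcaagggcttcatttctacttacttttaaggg

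In these windows Psmb5 and Psmb6 each held 1 match to TGACNNNGC, starting 47 and 9 bases before the annotated start, Psmb8 held 1 match to TTCNNNGAA, starting 97 bases before it, Psmb9 held CCAAT and GGGCGG and Psmb10 held CACGTG. Psmb6 also held GGGCGG. Over the 42 genes, TGACNNNGC was found in 6 (14.3%), against 12.4% of the 32851 promoters of the table, and GAAANNGAA in 7 (16.7%), against 8.56%. TTCNNNGAA was found in 3 (7.14%, against 8.30%), CACGTG in 4 (9.52%, against 7.15%), CCAAT in 15 (35.7%, against 37.4%) and GGGCGG in 23 (54.8%, against 35.7%). The 42 genes had 45 promoters, and a gene was counted where any of its promoters held the motif. The share beside it counts single promoters, so the units differ slightly, in favour of the 42 genes. No window of Psmb8, Psmb9 or Psmb10 held GAAANNGAA, which says only that these letters are not in these 300 bases. The windows of Psmb8 and Psmb9 lay wholly within the spans over which these genes were counted, downstream of the outermost 5′ ends. The bases before those ends were not searched.

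Psmb8 (chr17:34197721-34201454) and Psmb9 (chr17:34181988-34187764) lie in the MHC, on mm10 as the count table gives it. Between them lies Tap1 (chr17:34187553-34197225), which overlaps the 5′ end of Psmb9 on the opposite strand. The Psmb9 window printed above runs into that overlap. Psmb10 lies on another chromosome, 8, at 105935728 to 105938392. The genes that act with the immunoproteasome in class I antigen processing, a list of 9, gave 0 genes higher and 4 lower after LPS in edgeR, against 36.4% and 27.9% of all genes tested. The peptide transporter genes Tap1 and Tap2 were not called, with fitted changes of -0.06 and -0.34 (edgeR adjusted p = 0.733 and 0.0523). H2-K1 and H2-D1, the class I heavy chains, fell by 1.01 and 0.94 on the log2 scale, and B2m, their light chain, fell by 0.58. Irf1, which induces immunoproteasome genes after interferon, fell by 1.98 (edgeR adjusted p = 0.000298). It read 132.9 and 36.5 CPM in ΔleftPAL and 123.2 and 29.0 CPM in ΔIRIS cells. Over the list the median log2 ratio was -0.44 in ΔleftPAL and -0.36 in ΔIRIS cells.

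Among the alternative caps, Psme1 and Psme2 encode the alpha and beta subunits of PA28, a cap that interferon induces, and lie side by side on chromosome 14. Psme1 read 101 and 146 CPM in ΔleftPAL and 94.3 and 136 CPM in ΔIRIS cells, a 1.45-fold change (edgeR adjusted p = 0.013). Psme2 read 83.6 and 166 CPM in ΔleftPAL and 74.8 and 179 CPM in ΔIRIS cells, a 2.18-fold change (edgeR adjusted p = 0.0014). The partners of 1 complex thus both rose, Psme2 by the larger fold in each genotype. Psme3, the nuclear PA28 gamma, changed by 1.50-fold (edgeR adjusted p = 0.00941). In TPM Psme3 went from 81.93 to 79.87 in ΔleftPAL and from 92.93 to 90.45 in ΔIRIS cells, so its rise was not seen there. The call of Psme1 was lost on leaving out either LPS library, and that of Psme3 without the LPS-activated ΔIRIS library. Psme4, which encodes the large activator PA200, read 86.4 and 142 CPM in ΔleftPAL and 88.2 and 153 CPM in ΔIRIS cells, a 1.69-fold change (edgeR adjusted p = 0.00386). In TPM the mean log2 ratio of Psme4 was 0.08, against 0.76 in CPM, while the median of all genes tested went from 0.12 and 0.13 to -0.20 and -0.18.

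Psme2b was the 1 proteasome gene lower after LPS. It is a single-exon gene on chromosome 11, named as a copy of Psme2. Reads common to both genes were not measured, and since counting can split the reads of near-identical copies its counts are uncertain. It read 29.6 and 15.2 CPM in ΔleftPAL and 24.0 and 16.3 CPM in ΔIRIS cells, and the fitted change was -0.76 ± 0.16 (SE), with an adjusted p of 0.0106 in edgeR. Kallisto divided the reads differently, with 845.5 and 316.5 estimated counts in ΔleftPAL and 821.1 and 280.0 in ΔIRIS cells where the gene table held 722 and 410, and 698 and 479. The mean log2 ratio was -1.78 in TPM, against -0.74 in CPM. Without the LPS-activated ΔleftPAL library the call was lost. Psmf1, the inhibitor PI31, read 24.8 and 27.5 CPM in ΔleftPAL and 28.1 and 25.9 CPM in ΔIRIS cells. All 4 values lay close together, the fitted change was 0.02 ± 0.14 (SE), and it was not called (edgeR adjusted p = 0.922).

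The assembly chaperones of the core rest on few fragments, with 4.30 to 12.4 CPM at rest. Psmg1 and Psmg2 form the pair that starts the alpha ring. Psmg1 read 6.39 and 25.7 CPM in ΔleftPAL and 5.68 and 25.8 CPM in ΔIRIS cells, a 4.27-fold change (2.10 ± 0.17 SE, edgeR adjusted p = 0.000415). With a prior of 5 CPM in place of 0.5 its mean log2 ratio was 1.48, against 2.01. Psmg2 read 12.4 and 28.3 CPM in ΔleftPAL and 11.4 and 33.6 CPM in ΔIRIS cells, a 2.59-fold change (edgeR adjusted p = 0.00127). The partners of this pair both rose, Psmg1 by the larger fold in each genotype. Psmg3 and Psmg4 form the other pair. Psmg3 read 4.30 and 10.1 CPM in ΔleftPAL and 4.61 and 11.2 CPM in ΔIRIS cells, a 2.39-fold change (edgeR adjusted p = 0.00475), and its gene counts were 0.569 to 0.644 of the kallisto estimates. Psmg4 read 11.8 and 15.0 CPM in ΔleftPAL and 10.2 and 15.2 CPM in ΔIRIS cells, and its 1.37-fold change was not called (edgeR adjusted p = 0.0653). Pomp, the maturation factor of the core, whose name falls outside the rule, read 33.9 and 102.7 CPM in ΔleftPAL and 37.1 and 106.5 CPM in ΔIRIS cells, a 2.95-fold change (edgeR adjusted p = 0.000408).

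The largest fitted LPS change under the naming rule belonged to a gene that encodes no subunit. Psmc3ip, named for binding the ATPase Psmc3, acts in homologous recombination. It read 2.42 and 19.4 CPM in ΔleftPAL and 2.44 and 17.5 CPM in ΔIRIS cells, a 7.56-fold change (2.92 ± 0.21 SE, edgeR adjusted p = 0.000319). Per length it had the lowest level of the 48 tested genes at rest, at 3.41 and 3.29 TPM, and 23.6 and 20.7 TPM after LPS. Its resting levels rest on 59 and 71 counts, and with a prior of 5 CPM its mean log2 ratio was 1.66, against 2.69, and lay below that of Psma6, at 2.09.

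**Figure D3:**
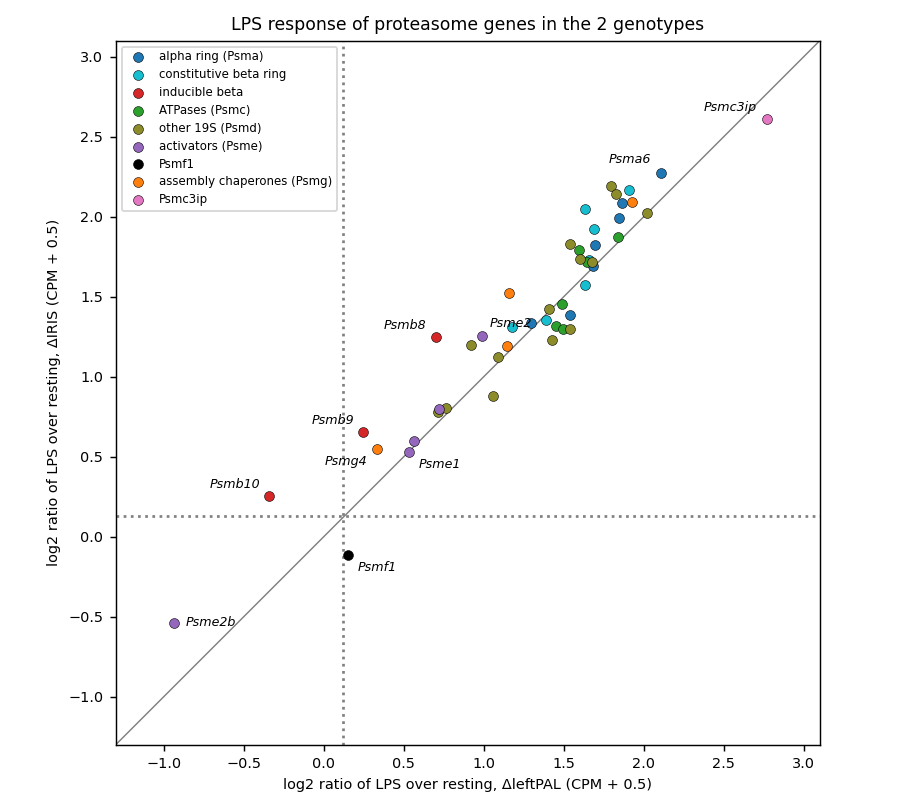
log2 ratio of LPS over resting (CPM + 0.5) in ΔleftPAL (x axis) against ΔIRIS cells (y axis) for the 48 genes tested, 1 point per gene, coloured by role; the solid line marks equal change and dotted lines the medians of all genes tested (0.12 and 0.13). Most points lie at the upper right near the line, and Psmb8, Psmb9 and Psmb10 lie above it, at (0.70, 1.25), (0.25, 0.65) and (-0.34, 0.26).

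Other genes of the proteasome and of substrate delivery, a list of 26 of which 25 were tested, showed a mixed response. In edgeR 15 were higher and 3 lower after LPS, against 36.4% and 27.9% of all genes tested, and the median log2 ratio was 0.71 in both genotypes, under that of the Psm genes. Remaining 19S subunits and associated enzymes rose, among them Adrm1 (1.87-fold), Shfm1 (1.98-fold), Uchl5 (2.89-fold) and Usp14 (2.46-fold), the last 2 being deubiquitinases. The unfoldase gene Vcp, at 173.4 and 510.6 CPM in ΔleftPAL and 183.0 and 517.9 CPM in ΔIRIS cells, changed by 2.89-fold (edgeR adjusted p = 0.000398). Its cofactor Nploc4 changed by 2.65-fold, and Ufd1l, the other cofactor, was not called (1.26-fold, edgeR adjusted p = 0.094). Nfe2l1, the gene of Nrf1, which induces proteasome genes when proteasomes are impaired, was not called, at 69.2 and 62.1 CPM in ΔleftPAL and 65.5 and 65.2 CPM in ΔIRIS cells (edgeR adjusted p = 0.587). Ddi2 and Ngly1, which process Nrf1, were not called either (edgeR adjusted p = 0.291 and 0.261). The 3 that fell were the polyubiquitin gene Ubb, by 0.35 on the log2 scale, Zfand5, by 0.97, and Nfe2l2, by 0.80.

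Between genotypes no proteasome gene of the 48 tested passed an adjusted p of 0.05 in the genotype term of edgeR, against 0.00886% of all genes tested (1 gene), and none was at least 2-fold apart at rest, against 2.85%, or after LPS, against 1.98%. These counts of 0 lie near the background. At an unadjusted p under 0.05 there were 2 (4.17%), Psmc6 and Psmb9, against 7.02% of all genes tested, and DESeq2 called 0. The lowest adjusted p was 0.706.

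At rest the 3 largest differences were those of the immunoproteasome subunits, each lower in the ΔIRIS library. On the log2 scale, ΔIRIS stood to ΔleftPAL at -0.61 (-0.72 to -0.51) for Psmb9, -0.57 (-0.68 to -0.47) for Psmb10 and -0.56 (-0.63 to -0.49) for Psmb8, or 1.53-fold, 1.49-fold and 1.47-fold less RNA. The median of all 48 genes was -0.01, and the rest lay between -0.30 and 0.46. After LPS the same ratios were -0.21 (-0.29 to -0.12), 0.03 (-0.08 to 0.13) and -0.01 (-0.05 to 0.04), so that the difference was within counting error for Psmb10 and Psmb8. Over the 9 class I genes the ratios ran from -0.52 (Tap1) to 0.08 (Erap1) at rest, with a median of -0.29, and from -0.40 (H2-K1) to 0.15 (Nlrc5) after LPS, with a median of -0.23. With 1 library a group these differences have no replicate check. The resting ΔIRIS library also held less RNA of the erythroid markers and more of the myeloid ones, as given at the start, and their part in the result was not tested.

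The largest positive difference at rest was that of the ATPase Psmc6, with 46.6 CPM in ΔleftPAL and 64.2 CPM in ΔIRIS cells, a log2 ratio of 0.46 (0.35 to 0.57), and after LPS it read 132.2 and 158.7 CPM, a ratio of 0.26 (0.20 to 0.33). After LPS the 3 largest differences were those of Psmd7 (0.29, 0.20 to 0.37), Psmd14 (0.29, 0.23 to 0.34) and Psmc6, all higher in the ΔIRIS library. At rest Psmd7 and Psmd14 had ratios of -0.11 and -0.03, with intervals that included 0. After LPS 40 of the 48 genes were higher in ΔIRIS cells, with a median of 0.10, against 6191 of 11286 genes with a median of 0.03. The median of the proteasome genes ran from 0.04 in TPM to 0.17 with kallisto estimated counts. For the core and 19S genes the genotype ratios were small beside the LPS changes of the same genes, and none exceeded 0.46 in either direction in either culture.

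**Figure D4:**
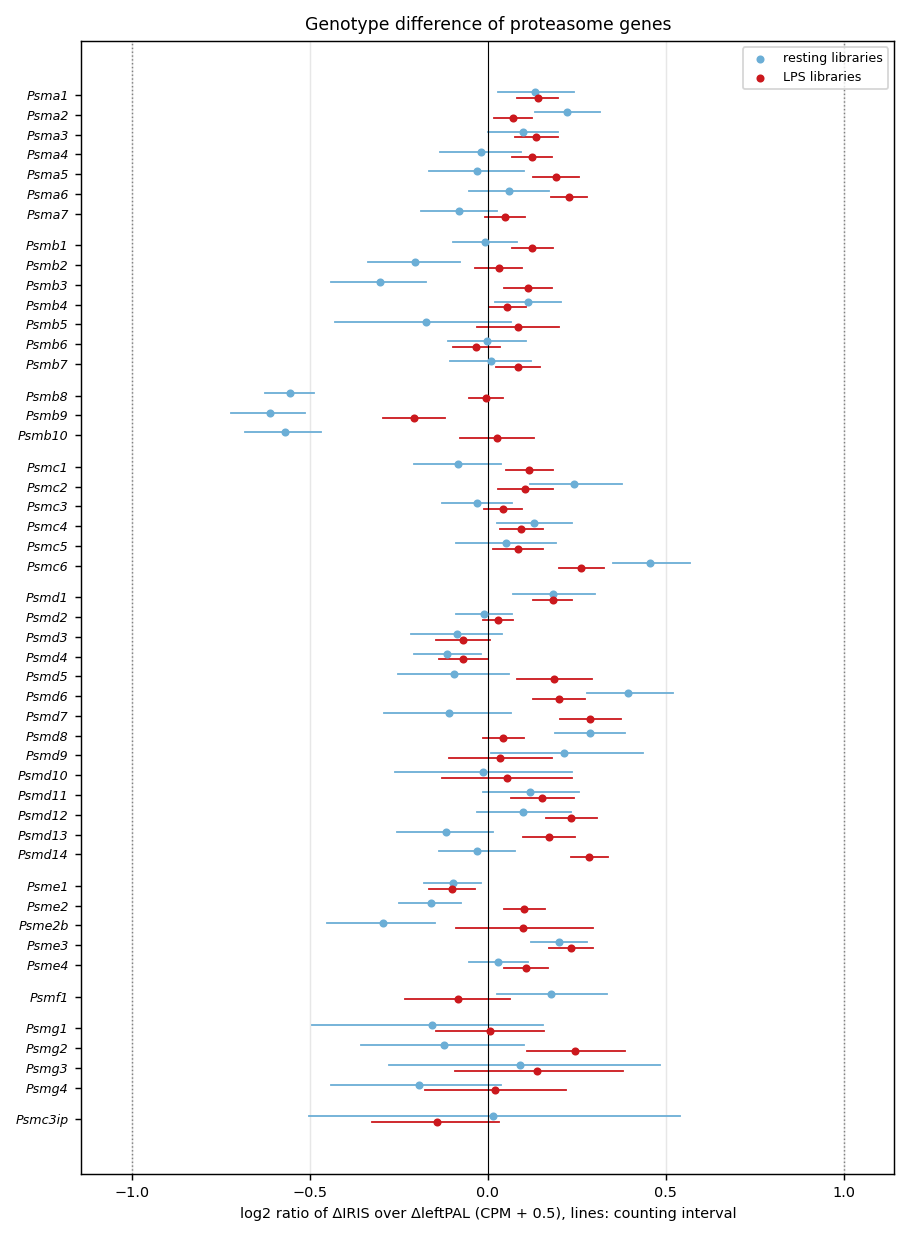
log2 ratio of ΔIRIS over ΔleftPAL (x axis, CPM + 0.5) for the 48 genes tested (y axis, grouped by role), blue for resting and red for LPS libraries; lines are 95% exact intervals for counting error and dotted lines mark 2-fold. All points lie inside the dotted lines, and the blue points of Psmb8, Psmb9 and Psmb10 lie farthest to the left, at -0.56, -0.61 and -0.57.

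The transcript table adds which RNA forms carried the genes. It held 224 transcripts of the 50 genes, 96 of them protein coding and 73 annotated as retaining an intron. For 25 of the tested genes the share of retained-intron transcripts could be given, since the gene had such a transcript and at least 50 estimated counts in every library. The median share was 13.4% at rest and 3.47% after LPS in ΔleftPAL cells, and 16.7% and 3.49% in ΔIRIS cells. Over the 4114 tested genes with such a transcript it went from 10.7% to 5.98% and from 10.1% to 5.33%. A lower share after LPS in both genotypes was found for 23 of the 25 genes (92.0%), against 74.4% of the 4114. These shares are estimates without a test.

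Psmc2 had a retained-intron share of 39.3% and 11.3% in ΔleftPAL and 31.3% and 8.57% in ΔIRIS cells, resting first. Its retained-intron transcripts held 510.6 and 323.3 estimated counts in ΔleftPAL cells, and 503.0 and 277.7 in ΔIRIS cells, so fewer after LPS in libraries of larger total. Psmb9 kept a share of 15.3% and 15.9% after LPS, from 29.5% and 23.2%, while Psmb8, the other immunoproteasome gene with such a transcript, was at 3.55% and 3.33%. The exceptions to the lower share were Psma3, at 42.6% and 46.3% in ΔleftPAL and 41.7% and 41.8% in ΔIRIS cells, and Psmc3ip, at 38.8% and 55.8% in ΔleftPAL and 49.9% and 47.8% in ΔIRIS cells.

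**Figure D5:**
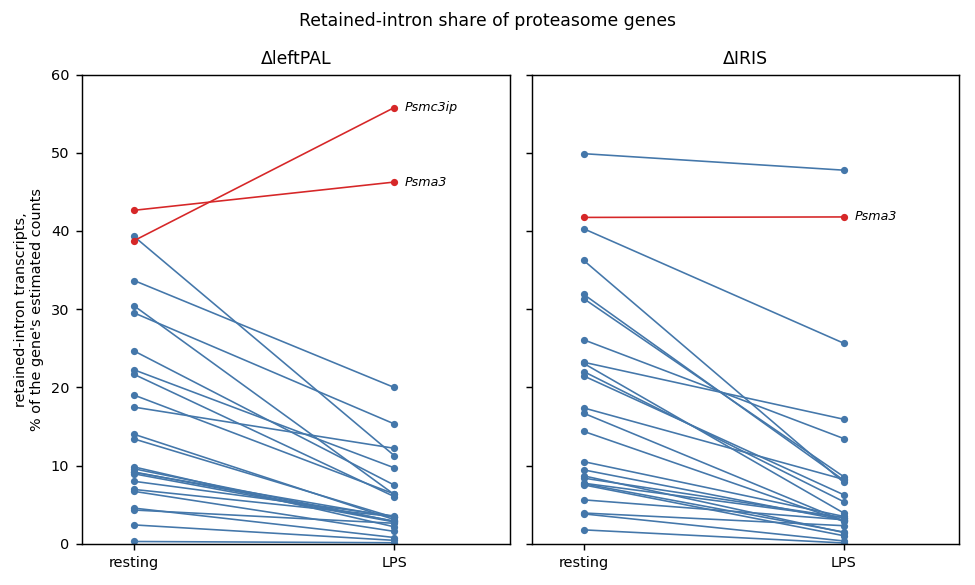
Share of a gene's kallisto estimated counts in transcripts annotated as retaining an intron (y axis, %), at rest and after LPS (x axis), for 25 proteasome genes in ΔleftPAL (left) and ΔIRIS cells (right); each line is 1 gene, red where the share was higher after LPS. The lines run downward except for Psma3 in both genotypes and Psmc3ip in ΔleftPAL cells.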

How the data were processed

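RNA of 4 libraries was analysed, 1 each of resting and LPS-activated ΔleftPAL and ΔIRIS cells. The authors mapped paired reads with STAR 2.4.0a to mm10 with Ensembl gene models and deposited unnormalized fragment counts per gene name, made with featureCounts (Subread 1.4.6-p1) counting strand-specifically and keeping 1 alignment of reads that map to several places. They also deposited kallisto 0.42.3 estimated counts and TPM values for 88198 transcripts, TPM being scaled per library to 1 sum. Gene counts were used for levels and tests, TPM for comparing levels between genes, and estimated counts for transcript shares. The estimated counts were rounded to whole numbers for the edgeR alternative.

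The row without a gene name (0.00876% to 0.0265% of counts) was left out. Total counts over named genes were 23615496, 27777790, 28707002 and 29776108 in the order of resting and LPS-activated ΔleftPAL, then resting and LPS-activated ΔIRIS cells, with TMM factors of 1.03, 0.970, 1.01 and 0.984. edgeR 4.0.16 (R 4.3.3) fitted genotype and culture across the 11286 genes whose mean reached 50 counts, and p-values were adjusted by Benjamini-Hochberg over all of them at a threshold of 0.05. SEs are the log2 fold change over the square root of the F statistic. With 1 residual degree of freedom the fit leans on the spread shared over genes (median prior degrees of freedom 4.35, biological coefficient of variation 15.9%). In data simulated for the LPS term over 11286 genes at that coefficient of variation, 82 of 100 genes changed 2-fold, 94 of 100 changed 4-fold and 12 of 11086 unchanged genes were called. Every simulated gene had the same coefficient of variation and the same change in both genotypes. In the real libraries 36.4% of genes were called higher and 27.9% lower, so the simulated counts cannot be carried over to them. Log2 ratios of 2 libraries used CPM + 0.5, while their 95% exact Clopper-Pearson intervals (scipy 1.17.1) used the counts alone and cover counting error alone, PCR duplicates being counted as separate fragments. CPM per kb used the exon length in the count table. Gene types came from GENCODE M21, and promoters from RefSeq.

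Full values were given for the catalytic subunits, Psme1, Psme2, Psme4, Psmf1, Psmg1 to Psmg4, the 3 genes with the largest and the 3 with the smallest LPS change, and the 3 with the largest genotype difference in each culture, and other genes were named after their values were seen. The members and the gene lists were chosen with earlier results of these data known. Alternatives were total counts, TMM without immunoglobulin genes, DESeq2 1.42.0, kallisto estimated counts and TPM, a minimum mean of 10 counts or none, a prior of 5 CPM, no block and, added after seeing the data, leaving out each library. Some genes of the lists are not reported here and were left out of the counts, medians and sums. wt libraries were not analysed here.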

Additional observations from a re-analysis of the deposited data

Results flagged for a closer look

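The log2 ratio of LPS over resting had opposite signs in the 2 genotypes for 2 of the 48 proteasome genes tested. For Psmb10 it was -0.34 in ΔleftPAL and 0.26 in ΔIRIS cells, a difference of 0.60, and neither counting interval included 0. For Psmf1 it was 0.15 in ΔleftPAL and -0.11 in ΔIRIS cells, a difference of -0.26, and both intervals included 0. In TPM Psmb10 went from 77.64 to 51.51 in ΔleftPAL and from 50.52 to 50.45 in ΔIRIS cells, so its opposite signs were not seen there. The medians of all genes tested were -0.20 and -0.18 in TPM, against 0.12 and 0.13 in CPM. Beside those TPM medians Psmb10 still lay lower in ΔleftPAL and higher in ΔIRIS cells. With 1 library in each group neither difference between the genotypes was tested.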

How the results depend on the processing

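The count of genes higher after LPS was 42 to 45 under the alternatives that kept every library, against 44 as reported, and 40 to 45 when 1 library was left out and culture alone was fitted, an alternative chosen after seeing the data in which the lone library of 1 culture is assumed to vary like the 2 libraries of the other. In each such count all but Psmg4 were among the 44, and the genes lost were Psmb9 (without every library other than resting ΔleftPAL), Psme1 (without either LPS library) and Psmd10 and Psme3 (without LPS-activated ΔIRIS). Total counts, DESeq2 and no genotype block also lost Psmb9, and DESeq2 Psmd10. The count lower after LPS was 2 with kallisto estimated counts, where Psmb11 joined Psme2b, and 0 to 1 when 1 library was left out, Psme2b being lost without the LPS-activated ΔleftPAL library. The median LPS change of the genes, 1.42 as the mean of both genotypes, was 1.18 in TPM, 1.57 with kallisto estimated counts, 1.34 with a prior of 5 CPM and 1.35 with total counts. The median genotype difference after LPS, 0.10, was 0.17 with kallisto estimated counts, 0.04 in TPM and 0.07 with TMM without immunoglobulin genes. No genotype call appeared under any alternative run. Of 120 LPS changes of named genes under the alternatives 40 moved beyond the counting interval, and of 240 genotype differences 19 did. Genotype was already the block of the LPS fit. No paired analysis by replicate number was possible because each group has 1 library. At rest Psmg3 and Psmc3ip rest on 59 to 134 counts, and Psma8 on 1 to 15 counts over the 4 libraries.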
